A study of Homo sapiens with 66 samples.

Results

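The genes described here are 10 receptor tyrosine kinases outside the ERBB family that have been linked to drug resistance in melanoma: AXL, TYRO3, MERTK, PDGFRA, PDGFRB, KIT, MET, IGF1R, FGFR1 and NTRK2. They form a list of names with no measured value in its rule, drawn up with earlier results of these data known, and all 10 were found by symbol among the 58721 gene identifiers of each count table. The series sequenced poly(A) RNA of A375, an established human melanoma cell line with mutant BRAF, in 66 libraries: 3 experiments with 22 groups in all, each of 3 replicates. In the Mediator experiment (42 libraries, 14 groups) cells carried a guide RNA against GFP as the control, or guide 1 or guide 2 against MED12, MED19 or MED23, subunits of the complex that connects transcription factors with RNA polymerase II. Each of these received DMSO or vemurafenib, which inhibits mutant BRAF, at 1 µM over 24 h. In the SOX10 experiment (12 libraries, 4 groups) cells with the GFP guide or with MED23 guide 1 carried an empty vector (EV) or overexpressed SOX10 (SOX10OE), the neural crest factor that also drives melanocyte genes. In the HDAC3 experiment (12 libraries, 4 groups) control cells, MED23 knockout cells, HDAC3 knockout cells and cells with both knockouts were compared. HDAC3 is a histone deacetylase that works within NCOR corepressor complexes. No drug was given in the last 2 experiments. Whether a knockout population was 1 clone or a pool of edited cells is not stated in the labels.

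Receptor tyrosine kinases bind a secreted or membrane-bound ligand, dimerise and phosphorylate each other, and adaptor proteins then pass the signal to the RAS-ERK and PI3K-AKT pathways. In melanoma with mutant BRAF the kinase BRAF feeds ERK without a receptor, and receptors such as PDGFRB, IGF1R, MET and AXL are known as routes by which ERK or AKT can stay active under a BRAF inhibitor. AXL is a marker of the dedifferentiated melanoma state, and KIT is a receptor of normal melanocytes.

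Depth was greatest in the Mediator experiment, whose libraries held 65.88 to 211.79 M counts (median 112.65). The SOX10 libraries were the shallowest, at 24.87 to 30.77 M (median 27.71), and the HDAC3 libraries held 58.84 to 106.19 M (median 68.52). The targeted genes were lower in the cells labelled as their knockouts: MED12 mRNA stood at 18.4 to 28.7% of the matching control over both guides and treatments, MED19 at 45.9 to 54.4%, MED23 at 42.9 to 53.2% over the 3 experiments, and HDAC3 at 51.1% and 60.3%. These shares are of mRNA, not of protein. SOX10 mRNA stood at 114% of the control with SOX10 overexpression in control cells, and in MED23 knockout cells at 46.9% with the vector and 81.7% with SOX10 overexpression. Of the melanocytic markers, SOX10 (771 ± 40.6 CPM, SD, n = 3) and MITF (73.8 ± 1.7) were present in control cells in DMSO, while TYR (0.0181) and TYRP1 (0.093) were near 0. Marker lists of other cell types were not at 0 there: the 6 blood genes summed to 15 to 16.8 CPM, the 6 epithelial genes to 10.5 to 11.1 CPM, the 6 fibroblast genes to 21 to 24.2 CPM and the 4 endothelial genes to 2.09 to 2.27 CPM. Of single members, PTPRC of the blood list (0.0744 CPM) and CDH1 of the epithelial list (0.00208) were near 0. The blood and epithelial sums thus came almost wholly from other members of these lists, which are not named here. No single member is given here for the fibroblast and endothelial lists. Whether cells of any of these types were present was not tested.

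At the level of reads per exon length, AXL led the set in control cells. Levels are given as CPM, reads per M of library size after TMM scaling, and here were also divided by the exon length in kilobases so that genes can be compared. In control cells in DMSO, AXL (ENSG00000167601, chr19:41219203-41261766), the receptor of GAS6, stood at 54.9 ± 1.45 CPM per kilobase (SD, n = 3). MET (ENSG00000105976, chr7:116672390-116798386), the receptor of hepatocyte growth factor, followed at 20.3 ± 0.144 CPM per kilobase. IGF1R (ENSG00000140443, chr15:98648539-98964530), the receptor of insulin-like growth factors, stood at 17.9 ± 0.6 CPM per kilobase. These 3 receptors made up the upper end of the set. TYRO3 (ENSG00000092445, chr15:41557675-41583586), like AXL a TAM receptor, stood at 5.54 ± 0.0927 CPM per kilobase. FGFR1 (ENSG00000077782), a fibroblast growth factor receptor, stood at 2.15 ± 0.0566 CPM per kilobase. PDGFRB (ENSG00000113721, chr5:150113837-150155872), the platelet-derived growth factor receptor beta, stood at 1.77 ± 0.121 CPM per kilobase. The remaining 4 were low in control cells. PDGFRA (ENSG00000134853, chr4:54229097-54298247), the alpha receptor, stood at 0.243 ± 0.0176 CPM per kilobase. MERTK (ENSG00000153208, chr2:111898479-112029561), the last TAM receptor, stood at 0.143 ± 0.00265 CPM per kilobase. NTRK2 (ENSG00000148053, chr9:84668551-85027070), the BDNF receptor TRKB, stood at 0.0609 ± 0.00673 CPM per kilobase. KIT (ENSG00000157404, chr4:54657918-54740715), the receptor of stem cell factor, stood at 0.000334 CPM per kilobase, from a single read over the 3 libraries. No receptor's 3 libraries overlapped those of its neighbour in this order. The order in control cells with the vector of the SOX10 experiment was the same, and in control cells of the HDAC3 experiment NTRK2 (0.0843 CPM per kilobase) stood above MERTK (0.062). Coordinates are on GRCh38 with the GENCODE 29 annotation, and exon length covers all annotated isoforms. The order rests on that length, and levels by the length of the isoforms expressed were not computed. By CPM alone, in control cells in DMSO, IGF1R (250) stood above MET (143) and NTRK2 (1.24) above MERTK (0.671). PDGFRA shares 15.8% of its exon bases on the same strand with AC058822.1, which had 0 counts in each group. How reads in shared bases were counted is not given, so the 0 counts do not show whether PDGFRA lost reads there. AXL and FGFR1 share 1.3% and 2.1% with genes on the opposite strand, and the strand setting of the counting is not given in the sources used here.

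Promoter windows of 3 members are shown because their levels moved by the sizes that the comparisons below turn on: NTRK2 with the drug, MET with loss of Mediator subunits and MERTK with loss of HDAC3. Each run gives 250 bases before and 20 bases after a RefSeq transcription start (GRCh38.p14, plus strand, 5′ to 3′), and capitals mark the searched motif.
NTRK2 (chr9:84669056-84669325): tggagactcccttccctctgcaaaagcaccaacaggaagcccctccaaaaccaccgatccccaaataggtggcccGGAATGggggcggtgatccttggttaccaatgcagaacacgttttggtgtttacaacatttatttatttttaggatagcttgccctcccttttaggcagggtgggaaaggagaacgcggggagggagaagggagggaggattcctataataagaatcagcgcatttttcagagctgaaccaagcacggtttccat
MET (chr7:116671946-116672215): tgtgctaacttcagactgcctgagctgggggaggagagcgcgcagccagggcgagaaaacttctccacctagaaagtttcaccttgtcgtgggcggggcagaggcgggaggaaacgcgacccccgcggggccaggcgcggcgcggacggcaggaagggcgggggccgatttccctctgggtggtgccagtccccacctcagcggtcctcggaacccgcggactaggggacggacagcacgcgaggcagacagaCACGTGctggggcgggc
MERTK (chr2:111898357-111898626): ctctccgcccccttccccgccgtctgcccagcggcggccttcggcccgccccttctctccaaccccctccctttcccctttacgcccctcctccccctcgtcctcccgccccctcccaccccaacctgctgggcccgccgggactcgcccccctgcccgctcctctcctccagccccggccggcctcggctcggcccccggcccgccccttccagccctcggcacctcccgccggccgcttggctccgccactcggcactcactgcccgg
In windows of 300 bases, on both strands, TGANTCA (an AP-1 motif) was searched, as were CACGTG (an E-box of the kind MITF binds), ACAATG and ACAAAG (SOX motifs) and GGAATG (a TEAD motif). Over all 35116 windows of the RefSeq table, 7.71% held the AP-1 letters, 7.26% the E-box, 24.5% a SOX motif and 14% the TEAD letters. The 15 windows of the 9 members other than FGFR1 held a match in 7 cases. The share of all windows with any of these motifs was not computed, so the 7 cases are not set against it. Among them were the E-box of MET, which lies just after the start, the TEAD letters in windows 1 and 2 of NTRK2 and SOX letters in its window 4. AP-1 letters were found in windows of TYRO3 and PDGFRA, and SOX and TEAD letters in a second window of AXL. The GC content was 78.3% in the MERTK window, 69.3% in the MET window and 50.0% in the NTRK2 window, beside a median of 58.7% over all windows. A match describes the letters of a window and is not a measured binding site.

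Vemurafenib in control cells answered how the receptors stand after 24 h of BRAF inhibition. NTRK2, PDGFRB, MERTK and KIT rose more than 2-fold, and AXL, TYRO3, PDGFRA, MET, IGF1R and FGFR1 fell, each by less than 2-fold. A call at 2-fold here needs an adjusted p under 0.05 in edgeR's quasi-likelihood test and a 2-fold change: 4 of 10 receptors were called higher and 0 lower, beside 29.7% of the 27453 genes tested, and by adjusted p alone 4 were higher and 6 lower, beside 66.2% of all genes. The median log2 fold change was -0.59 over the receptors and 0.11 over all genes. IGF1R lies next to the 2-fold line, and without replicate 1 of the control guide in DMSO 1 receptor was called lower.

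**Figure D1:**
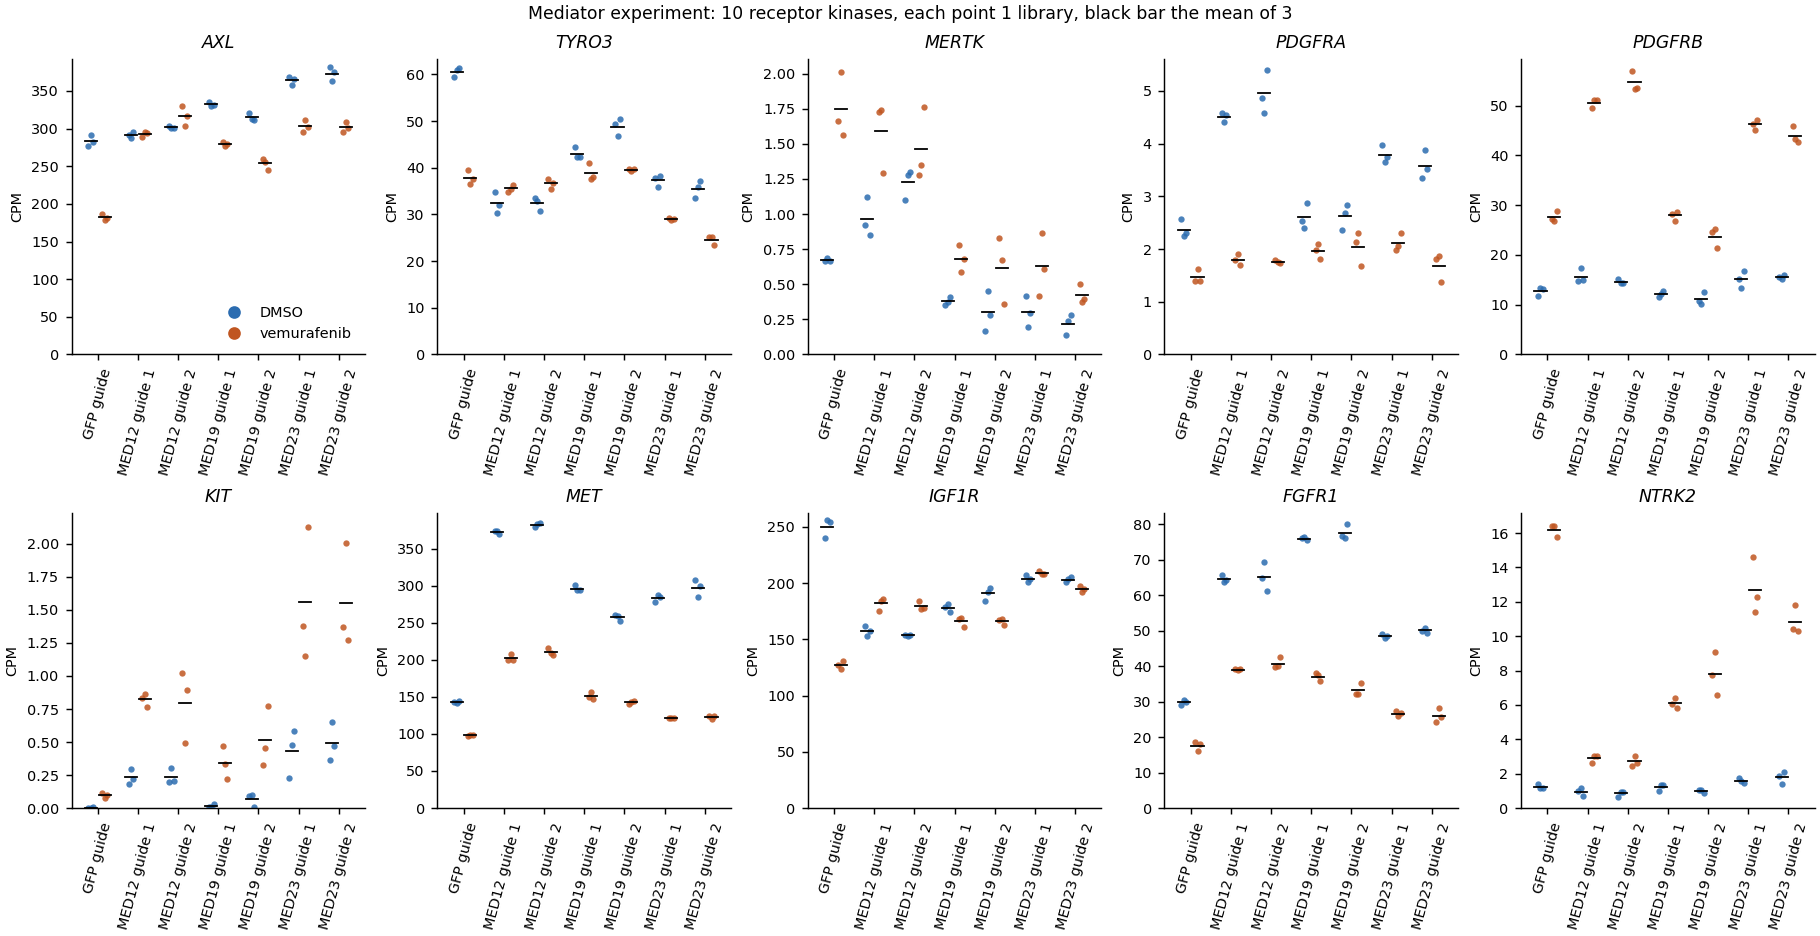
Levels of the 10 receptors in the Mediator experiment, in CPM on linear axes from 0, for each guide in DMSO (blue) and vemurafenib (orange); each point is 1 library and the black bar is the mean of 3. NTRK2 under vemurafenib stands at 15.8 to 16.4 CPM in control cells and far lower in MED12 knockout cells, and MET in DMSO is higher with each Mediator guide than with the GFP guide.

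NTRK2 had the largest change among receptors with more than a few reads. Its control libraries in DMSO stood at 1.4, 1.17 and 1.15 CPM and those under vemurafenib at 16.4, 16.4 and 15.8 CPM, a log2 fold change of 3.72 ± 0.14 (SE, edgeR adjusted p = 2.13e-28). The lowest drug-treated library was thus far above the highest DMSO library. PDGFRB stood at 11.7, 13.3 and 13.1 CPM in DMSO and at 27.2, 26.9 and 28.9 CPM under the drug, a log2 fold change of 1.12 ± 0.0644 (adjusted p = 5.07e-21). Its groups did not overlap. The fibroblast marker list, which itself holds PDGFRB, moved the same way: the sum over its 6 genes was 21 to 24.2 CPM in DMSO and 47.5 to 49.9 CPM under the drug, led by PDGFRB, LUM and COL1A1, with COL1A2 and THY1 under 1 CPM, and the part of that list in the result was not tested. With the drug the melanocytic list went from 853 to 931 CPM to 2130 to 2190 CPM, the epithelial list from 10.5 to 11.1 CPM to 26 to 27.1 CPM and the endothelial list from 2.09 to 2.27 CPM to 5.84 to 6.66 CPM. The blood list went from 15 to 16.8 CPM down to 10.6 to 11.1 CPM, and the part of these lists was not tested either. SOX10, itself in the melanocytic list, had means of 771 CPM in DMSO and 1050 CPM under the drug. In bulk libraries a change in the share of cells that express a gene and a change in its RNA per cell cannot be told apart. MERTK stood at 0.664, 0.686 and 0.664 CPM in DMSO and at 1.66, 2.01 and 1.56 CPM under the drug (log2 fold change 1.38 ± 0.233, adjusted p = 1.05e-06), again without overlap.

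KIT was barely detected in control cells. It had 1 read over the 3 DMSO libraries and 34 over the 3 drug-treated ones, a ratio of 43.1 with an exact 95% interval of 7.24 to 1750 that covers counting error only. In CPM the drug-treated libraries stood at 0.111, 0.0771 and 0.102, so KIT remained the lowest of the set. The edgeR adjusted p was 9.45e-06, and in a fit of only these 2 groups KIT did not pass the filter on low counts.

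The other 6 receptors fell by 0.54 to 0.98 on the log2 scale. AXL went from 277, 291 and 282 CPM to 187, 178 and 181 CPM, a log2 fold change of -0.64 ± 0.0271 (adjusted p = 3e-26). IGF1R went from 240, 256 and 254 CPM to 127, 124 and 131 CPM (-0.98 ± 0.0284, adjusted p = 5.51e-33). MET went from 143, 142 and 144 CPM to 97.6, 98.6 and 98.7 CPM (-0.54 ± 0.0259, adjusted p = 4.22e-24). No drug-treated library of these 3 receptors reached the lowest DMSO library. The log2 fold changes of TYRO3, PDGFRA and FGFR1 were -0.68 ± 0.0428, -0.68 ± 0.116 and -0.77 ± 0.0462, with adjusted p of 1.66e-19, 1.11e-06 and 2.83e-20, and their groups did not overlap either.

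Loss of MED12, a subunit of the kinase module of Mediator, was first compared in DMSO, with both guides weighted equally against the GFP guide. MET, FGFR1, PDGFRA and KIT rose at least 2-fold, MERTK, PDGFRB and AXL rose by less, and TYRO3, IGF1R and NTRK2 fell. That is 4 receptors called higher and 0 lower at 2-fold, beside 15.6% of all genes, and 7 higher and 3 lower by adjusted p alone, beside 54.9% of all genes. The median log2 fold change was 0.47 over the receptors and 0 over all genes. MET stood at 373, 374 and 370 CPM with guide 1 and at 379, 383 and 384 CPM with guide 2, beside 143, 142 and 144 CPM in control cells, a log2 fold change of 1.40 ± 0.0234 (adjusted p = 1.47e-42). FGFR1 stood at 65.8, 63.8 and 64.4 CPM with guide 1 and at 65, 69.5 and 61.2 CPM with guide 2, beside 29, 30.6 and 29.9 CPM in control cells (1.12 ± 0.0393, adjusted p = 2.82e-29). PDGFRA stood at 4.58, 4.4 and 4.55 CPM and at 4.86, 4.58 and 5.4 CPM with the guides, beside 2.56, 2.24 and 2.3 CPM in control cells (1.00 ± 0.0959, adjusted p = 6.42e-13). For these 3 receptors each knockout library lay above each control library. PDGFRA sits on the 2-fold line, and was under it with guide 1 alone (0.94), with DESeq2's Wald test (0.98) and without replicate 2 (0.96) or 3 (0.98) of the GFP guide, replicate 3 of MED12 guide 2 (0.97) or, narrowly, replicate 1 or 3 of MED12 guide 1. It was also under the line with DESeq2 size factors (0.98), without a filter on low counts (0.99) and with only the groups compared (0.99). KIT had 188 reads over the 6 knockout libraries, a ratio to control cells of 104 per read of depth (exact 95% interval 18.4 to 4120). TYRO3 fell to 34.8, 30.3 and 32 CPM with guide 1 and 33.5, 32.8 and 30.8 CPM with guide 2, from 59.5, 61 and 61.4 CPM (-0.91 ± 0.0359, adjusted p = 4.54e-27). IGF1R fell by 0.68 ± 0.0237 on the log2 scale (adjusted p = 1.87e-29). AXL had a log2 fold change of 0.07 ± 0.0233 (adjusted p = 0.0131) with overlapping libraries, and this call did not hold with guide 1 alone (0.04, adjusted p = 0.211), without replicate 1 of the GFP guide in DMSO (0.05, adjusted p = 0.128) or without its replicate 3 (0.06, adjusted p = 0.0523). With all libraries the AXL call was also lost with both guides as 1 group (adjusted p = 0.107) and without a filter on low counts (0.154). The same held with DESeq2 size factors (0.119) and with DESeq2's Wald test (0.112). MERTK rose by 0.69 ± 0.209 with both guides (adjusted p = 0.0039) and had 0.52 (adjusted p = 0.059) with guide 1 alone. NTRK2 fell by 0.46 ± 0.142 (adjusted p = 0.00506), with overlapping libraries. The fibroblast list summed to 76.5 to 81.2 CPM in these knockout libraries, beside 21 to 24.2 CPM in control cells, and the melanocytic list to 164 to 213 CPM beside 853 to 931. Most of the melanocytic sum was SOX10 itself, with means of 137 and 106 CPM for guides 1 and 2 beside 771 CPM in control cells. The part of both lists in these results was not tested.

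Loss of MED19 in DMSO raised FGFR1, MET and AXL and lowered TYRO3, IGF1R and MERTK. At 2-fold 2 receptors were called higher (FGFR1 and KIT) and 0 lower, beside 6.30% of all genes, and by adjusted p alone 4 were higher and 3 lower, beside 40.6%. The median over the receptors was 0.01 and over all genes 0. FGFR1 stood at 76.1, 76.5 and 75.6 CPM with guide 1 and 76.8, 76.3 and 80.1 CPM with guide 2 (log2 fold change 1.37 ± 0.0397, adjusted p = 9.76e-32). MET stood at 301, 294 and 294 CPM with guide 1 and 261, 259 and 252 CPM with guide 2 (0.95 ± 0.023, adjusted p = 5.89e-35). Both receptors lay above their control libraries in each knockout library. MERTK fell by 0.97 ± 0.224 (adjusted p = 0.000328), and TYRO3 and IGF1R by 0.41 ± 0.0362 and 0.44 ± 0.0239 (adjusted p of 1.84e-13 and 4.61e-21). MERTK lies near the 2-fold line, and without replicate 3 of MED19 guide 1 or replicate 2 of MED19 guide 2 in DMSO 1 receptor was called lower. KIT had 26 reads over 6 libraries, a ratio of 17.9 with a 95% interval of 2.94 to 735. Its edgeR call (adjusted p = 0.00636) did not hold with guide 1 alone (adjusted p = 0.114) or without replicate 3 of MED19 guide 1 in DMSO (adjusted p = 0.0686). PDGFRA (0.15, adjusted p = 0.221), PDGFRB (-0.13, adjusted p = 0.0801) and NTRK2 (-0.14, adjusted p = 0.477) did not pass. For PDGFRB the adjusted p was 0.0304 with guide 2 alone, 0.0259 without replicate 1 of the GFP guide in DMSO, 0.0484 without replicate 3 of MED19 guide 1 and 0.0135 without replicate 3 of MED19 guide 2. The melanocytic list summed to 475 to 481 CPM with guide 1 and 600 to 635 with guide 2, and the fibroblast list to 24.2 to 33.5 CPM. SOX10 alone had means of 414 and 545 CPM in the melanocytic sums of guides 1 and 2.

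Loss of MED23, a subunit of the Mediator tail, in DMSO raised MET, FGFR1, PDGFRA, NTRK2, AXL, PDGFRB and KIT and lowered MERTK, TYRO3 and IGF1R. Calls at 2-fold were 2 higher (MET and KIT) and 1 lower (MERTK), beside 6.79% of all genes, and calls by adjusted p alone were 7 higher and 3 lower, beside 36.9%. The median over the receptors was 0.41 and over all genes 0.01. MET stood at 278, 287 and 284 CPM with guide 1 and at 307, 284 and 299 CPM with guide 2 (1.02 ± 0.023, adjusted p = 1.93e-36). With guide 1 alone MET lay under the 2-fold line, which left 1 receptor called higher. FGFR1 stood at 49.1, 48.1 and 48.5 CPM and at 50, 50.9 and 49.4 CPM (0.72 ± 0.0389, adjusted p = 2.31e-21). Each knockout library of these 2 receptors lay above the control libraries. KIT had 349 reads over 6 libraries, a ratio of 208 with a 95% interval of 37.1 to 8250. Its knockout libraries stood at 0.227, 0.479 and 0.584 CPM with guide 1 and at 0.367, 0.655 and 0.467 CPM with guide 2, all above the control. MERTK fell to 0.418, 0.199 and 0.295 CPM with guide 1 and 0.139, 0.241 and 0.28 CPM with guide 2 (-1.39 ± 0.227, adjusted p = 1.43e-06). AXL rose by 0.38 ± 0.0236 (adjusted p = 5.37e-19), to 358 to 382 CPM. PDGFRA rose by 0.64 ± 0.0958 (adjusted p = 2.23e-07) and PDGFRB by 0.27 ± 0.0575 (adjusted p = 0.000109). TYRO3 fell by 0.74 ± 0.036 (adjusted p = 6.33e-23) and IGF1R by 0.29 ± 0.024 (adjusted p = 8.34e-15). NTRK2 rose by 0.45 ± 0.135 (adjusted p = 0.00635), but not past the threshold with guide 1 alone (0.34, adjusted p = 0.0972) or without replicate 3 of the GFP guide in DMSO (0.40, adjusted p = 0.0522). The fibroblast list summed to 40.1 to 45.2 CPM and the melanocytic list to 360 to 412 CPM, and their part in these results was not tested. SOX10 alone had means of 299 and 276 CPM in the melanocytic sums of guides 1 and 2.

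**Figure D2:**
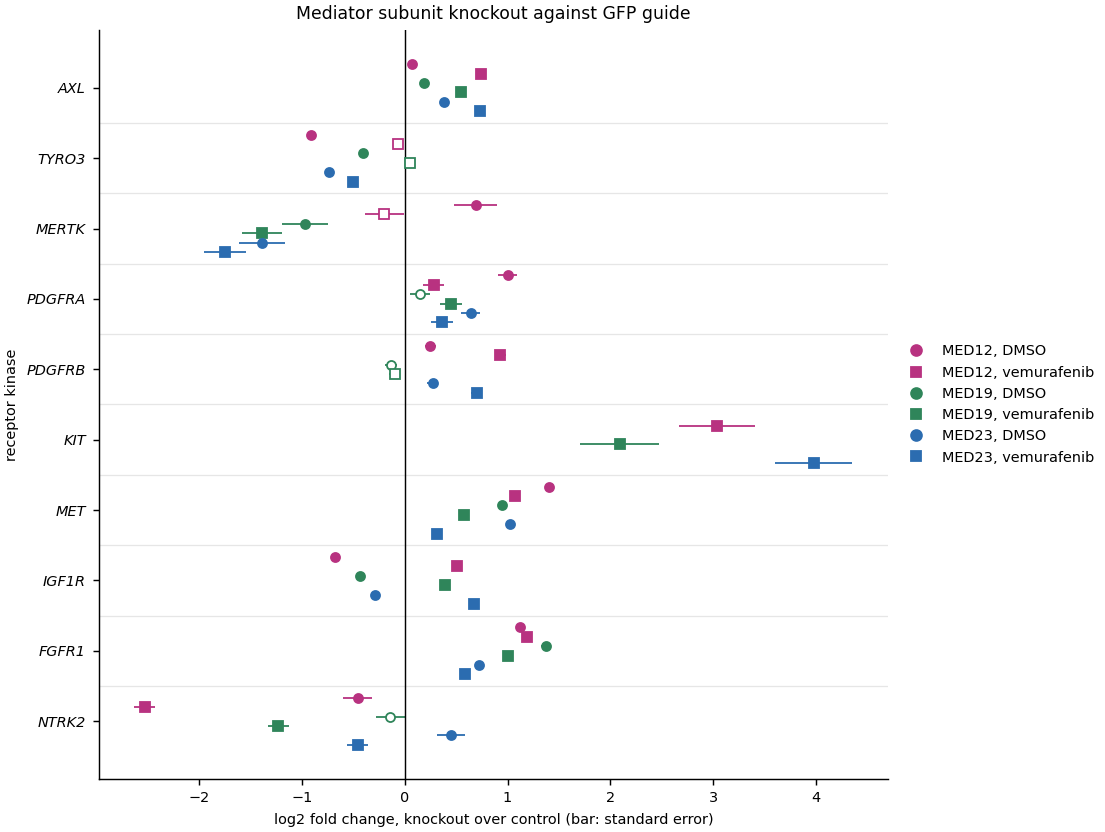
Log2 fold change of each receptor in MED12, MED19 and MED23 knockout cells over control cells, in DMSO and under vemurafenib; bars are standard errors, filled points have an adjusted p under 0.05 and open points do not, and KIT is left out where the control group has 3 reads or fewer. MET and FGFR1 lie right of 0 for the 3 knockouts in both treatments, and NTRK2 under vemurafenib lies left of 0, furthest for MED12.

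The 3 knockouts share their control libraries, so their changes are given side by side and not as independent repeats. MET and FGFR1 were higher with each subunit, at log2 fold changes of 1.40, 0.95 and 1.02 for MET and 1.12, 1.37 and 0.72 for FGFR1 (MED12, MED19, MED23). TYRO3 (-0.91, -0.41, -0.74) and IGF1R (-0.68, -0.44, -0.29) were lower with each. MERTK differed in sign, at 0.69, -0.97 and -1.39.

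Under vemurafenib the knockouts were again compared with the GFP guide, now in drug-treated cells. With MED12 loss 3 receptors were called higher at 2-fold (KIT, FGFR1 and MET) and 1 lower (NTRK2), beside 21.0% of all genes, and by adjusted p alone 7 were higher and 1 lower, beside 62.2%. With MED19 loss 2 were higher (KIT and FGFR1) and 2 lower (MERTK and NTRK2) at 2-fold, beside 8.11%, and by adjusted p alone 6 were higher and 2 lower, beside 43.7%. With MED23 loss 1 was higher (KIT) and 1 lower (MERTK) at 2-fold, beside 11.6%, and by adjusted p alone 7 were higher and 3 lower, beside 47.3%. The medians over the receptors were 0.63, 0.42 and 0.48 beside 0, -0.01 and -0.01 over all genes. FGFR1 with MED19 loss (1.00 ± 0.0415) lies on the 2-fold line: 1 receptor was called higher without replicate 2 of the GFP guide, without replicate 1 of MED19 guide 1 or without replicate 3 of MED19 guide 2 under the drug.

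NTRK2, which the drug raised in control cells, was lower in the drug-treated knockouts. In MED12 knockout cells under the drug it stood at 2.63, 3.05 and 3.01 CPM with guide 1 and 2.45, 3.04 and 2.65 CPM with guide 2, beside 15.8 to 16.4 CPM in drug-treated control cells, a log2 fold change of -2.53 ± 0.101 (adjusted p = 3.75e-27). MED19 knockout libraries stood at 6.06, 6.43 and 5.85 CPM and at 7.76, 9.09 and 6.57 CPM (-1.23 ± 0.0994, adjusted p = 5.1e-15). MED23 knockout libraries stood at 14.6, 11.4 and 12.3 CPM and at 10.4, 11.8 and 10.3 CPM (-0.46 ± 0.1, adjusted p = 0.000113). No knockout library reached the lowest control library. The drug still raised NTRK2 within each knockout, by 1.66 ± 0.108, 2.63 ± 0.105 and 2.81 ± 0.0978 on the log2 scale for MED12, MED19 and MED23, beside 3.72 in control cells. The test of the difference between the responses, knockout minus control, gave -2.07 ± 0.177 for MED12 (adjusted p = 2.19e-14), -1.09 ± 0.175 for MED19 (adjusted p = 1.31e-06) and -0.91 ± 0.168 for MED23 (adjusted p = 1.54e-05). For NTRK2 with guide 2 alone the MED19 difference was -0.77 (adjusted p = 0.00466), under the 2-fold line, and the MED23 difference -1.13 (adjusted p = 4.21e-06), past it.

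PDGFRB responded to the drug more in MED12 and MED23 knockout cells than in control cells. With MED12 guides it went from 14.7, 17.3 and 14.9 CPM to 49.5, 51.1 and 51.2 CPM (guide 1) and from 15.1, 14.4 and 14.4 CPM to 57, 53.4 and 53.5 CPM (guide 2), a log2 fold change of 1.80 ± 0.0447 (adjusted p = 1.65e-35). With MED23 guides it went from 13.4 to 16.7 CPM in DMSO to 42.6 to 47.1 CPM under the drug (1.55 ± 0.0457, adjusted p = 6.26e-33). With MED19 loss the change was 1.15 ± 0.0472 (adjusted p = 7.51e-27), near the 1.12 of control cells. The differences from the control response were 0.67 ± 0.0778 for MED12 (adjusted p = 2.09e-10), 0.43 ± 0.0785 for MED23 (adjusted p = 1.35e-05) and 0.02 ± 0.0795 for MED19 (adjusted p = 0.871). The fibroblast list summed to 172 to 195 CPM in drug-treated MED12 knockout libraries, 102 to 112 CPM in MED23 and 56.3 to 84.1 CPM in MED19 knockout libraries, beside 47.5 to 49.9 CPM in drug-treated control cells, and its part in the result was not tested.

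IGF1R and AXL, which fell with the drug in control cells, fell less or not at all in the knockouts. IGF1R in MED12 knockout cells went from 153 to 162 CPM in DMSO to 175 to 186 CPM under the drug, a rise of 0.22 ± 0.0199 (adjusted p = 1.04e-13), with no overlap. In MED19 knockout cells it fell by 0.15 ± 0.02 (adjusted p = 4.54e-09), and in MED23 knockout cells the change was -0.01 ± 0.02 (adjusted p = 0.551), with overlapping libraries. The differences from the control response of -0.98 were 1.19 ± 0.0346, 0.83 ± 0.0346 and 0.96 ± 0.0346 (MED12, MED19, MED23, adjusted p of 2.77e-32, 4.13e-25 and 6.41e-28). AXL in MED12 knockout cells stood at 287 to 304 CPM in DMSO and 289 to 330 CPM under the drug (0.04 ± 0.0189, adjusted p = 0.0832), and the adjusted p was 0.0322 with guide 2 alone, 0.00899 without replicate 2 of guide 2 under the drug and 0.00603 with DESeq2 size factors. In MED19 and MED23 knockout cells AXL fell by 0.28 ± 0.019 and 0.28 ± 0.0191 (adjusted p of 3.73e-18 and 1.43e-18). The differences from the control response of AXL were 0.68 ± 0.033, 0.36 ± 0.033 and 0.35 ± 0.033 (adjusted p of 2.92e-23, 6.53e-13 and 1.03e-12). TYRO3 had differences of 0.84 ± 0.0525, 0.46 ± 0.0525 and 0.23 ± 0.0533 (MED12, MED19, MED23, adjusted p of 3.84e-19, 4.53e-10 and 0.000331), the last with 0.15 (adjusted p = 0.0553) from guide 2 alone.

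MET fell with the drug in each background, and further in the knockouts. Under the drug its libraries stood at 199 to 216 CPM with MED12 guides, 141 to 156 CPM with MED19 guides and 120 to 124 CPM with MED23 guides, beside 97.6 to 98.7 CPM in control cells. The drug lowered MET by 0.87 ± 0.018, 0.91 ± 0.0182 and 1.25 ± 0.0185 in the 3 knockouts, beside 0.54 in control cells, and the differences were -0.33 ± 0.0314, -0.37 ± 0.0315 and -0.70 ± 0.0317 (adjusted p of 7.52e-13, 6.48e-14 and 4.31e-24). MET was still higher in the drug-treated knockouts than in drug-treated control cells, by 1.07 ± 0.0233, 0.58 ± 0.023 and 0.31 ± 0.0229. FGFR1 fell with the drug by 0.70 ± 0.0303, 1.13 ± 0.0311 and 0.91 ± 0.0324, beside 0.77 in control cells. The difference passed for MED19 (-0.36 ± 0.0556, adjusted p = 5.41e-07) and not for MED12 (0.07 ± 0.0552, adjusted p = 0.344) or MED23 (-0.14 ± 0.0564, adjusted p = 0.056). The last passed without replicate 2 of the GFP guide in DMSO (adjusted p = 0.0446), without its replicate 2 under the drug (0.0064), without replicate 1 of MED23 guide 1 (0.0419) and without replicate 2 of MED23 guide 2 (0.0156) under the drug.

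PDGFRA fell with the drug most in MED12 knockout cells, from 4.4 to 5.4 CPM to 1.7 to 1.91 CPM (-1.41 ± 0.0768, adjusted p = 1.03e-21), and by 0.39 ± 0.0811 and 0.96 ± 0.0826 in MED19 and MED23 knockout cells. The difference from the control response was -0.72 ± 0.14 for MED12 (adjusted p = 1.83e-05). It did not pass for MED19 (0.30, adjusted p = 0.109; without replicate 3 of MED19 guide 2 under the drug 0.35, adjusted p = 0.0447) or MED23 (-0.28, adjusted p = 0.136). PDGFRA in drug-treated MED12 knockout cells was 0.28 ± 0.103 above control (adjusted p = 0.0166), which did not hold without replicate 1 (0.25, adjusted p = 0.073) or replicate 3 (0.25, adjusted p = 0.0729) of the drug-treated GFP guide. With MED23 loss it was 0.36 ± 0.108 higher (adjusted p = 0.00416), but 0.20 (adjusted p = 0.214) with guide 2 alone. MERTK in drug-treated MED19 and MED23 knockout cells was lower than in control cells by 1.39 ± 0.196 and 1.75 ± 0.207 (adjusted p of 4.49e-08 and 4.66e-10), at 0.356 to 0.827 CPM and 0.377 to 0.863 CPM beside 1.56 to 2.01 CPM. In MED12 knockout cells under the drug MERTK did not differ past the threshold (-0.20, adjusted p = 0.373). The drug raised MERTK by 0.48 ± 0.158 in MED12 knockout cells (adjusted p = 0.00725; with guide 2 alone 0.25, adjusted p = 0.368), 0.96 ± 0.194 in MED19 and 1.02 ± 0.213 in MED23 knockout cells, with overlapping libraries in each.

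KIT was highest in drug-treated MED23 knockout cells, at 1.38, 1.15 and 2.13 CPM with guide 1 and 1.37, 2.01 and 1.27 CPM with guide 2. Drug-treated MED12 knockout libraries stood at 0.834, 0.866 and 0.768 CPM and at 1.02, 0.489 and 0.891 CPM, and MED19 knockout libraries at 0.217 to 0.77 CPM. All lay above the drug-treated control libraries, with ratios of 8.29 (95% interval 5.89 to 12.1) for MED12, 4.13 (2.89 to 6.08) for MED19 and 16 (11.3 to 23.2) for MED23. The drug raised KIT within the knockouts by ratios of 3.45 (2.94 to 4.06), 9.95 (6.66 to 15.5) and 3.31 (2.91 to 3.77). Reads were pooled over libraries for these ratios, so the intervals cover counting error only and not the spread between libraries. The fitted differences from the control response were -3.13 ± 1.08 for MED12 (adjusted p = 0.0136) and -3.18 ± 1.07 for MED23 (adjusted p = 0.0168). They rest on the single read in control cells in DMSO: without replicate 2 of that group they were -2.65 (adjusted p = 0.0686) and -2.70 (adjusted p = 0.0817), and without replicate 3, which holds the read, -4.81 (adjusted p = 0.018) and -4.86 (adjusted p = 0.023).

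**Figure D3:**
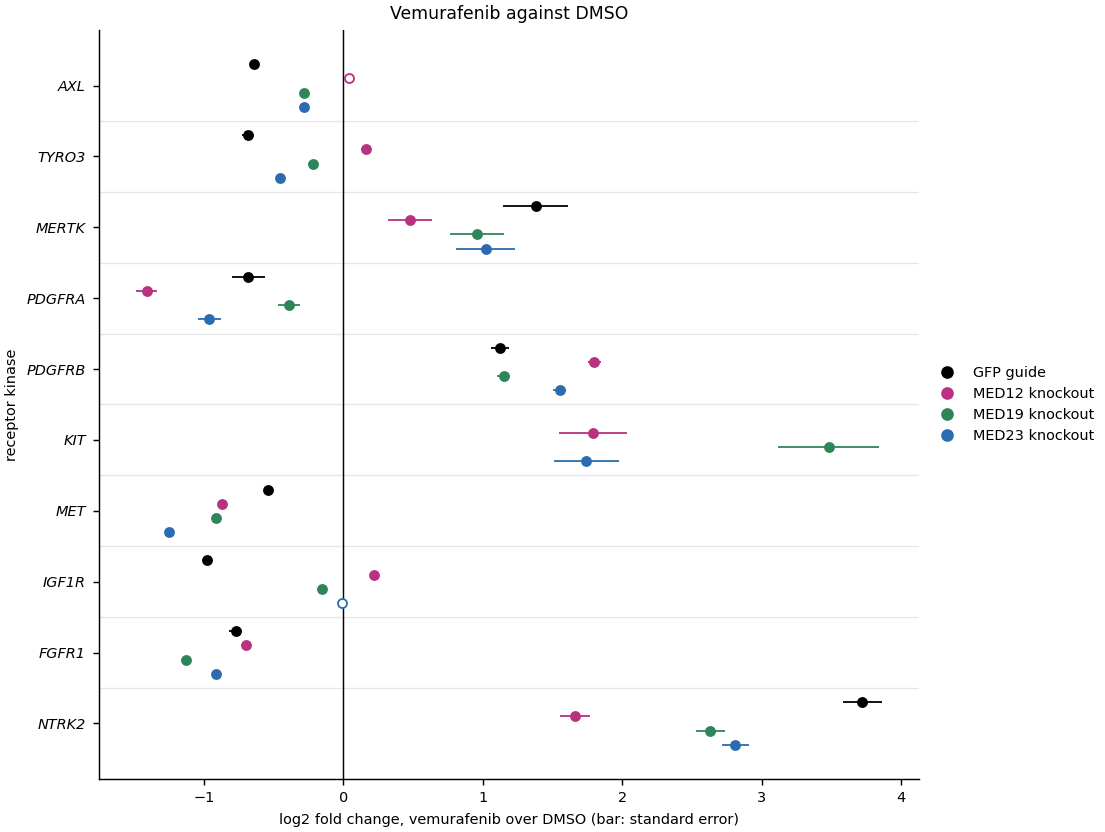
Log2 fold change of each receptor with vemurafenib over DMSO in control cells and in the 3 kinds of knockout cells; bars are standard errors, filled points have an adjusted p under 0.05 and open points do not, and KIT in control cells is left out because it had 1 read in DMSO. NTRK2 moves from 3.72 in control cells to 1.66 in MED12 knockout cells, and IGF1R from -0.98 to 0.22.

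Within the knockouts the drug changed the receptors as follows. At 2-fold 3 were higher and 1 lower in MED12 knockout cells, beside 15.7% of all genes, and by adjusted p alone 6 were higher and 3 lower, beside 63.2%. In MED19 knockout cells 3 were higher and 1 lower, beside 25.6%, and 4 higher and 6 lower by adjusted p alone, beside 70.3%. In MED23 knockout cells 4 were higher and 1 lower, beside 25.6%, and 4 higher and 5 lower by adjusted p alone, beside 69.5%. PDGFRA in MED23 knockout cells lies near the 2-fold line, and without replicate 2 of MED23 guide 2 under the drug 2 receptors were called lower. MERTK in these cells (1.02), called higher, also lies on that line. It was under it with guide 2 alone (0.97), with only the groups compared (0.99) and without single libraries, at the lowest 0.87. The medians were 0.19, -0.19 and -0.15 over the receptors beside 0.03, 0.08 and 0.07 over all genes. For the differences in response, MED12 gave 1 receptor higher (IGF1R) and 2 lower (NTRK2 and KIT) at 2-fold, beside 14.7% of all genes, and 4 higher and 5 lower by adjusted p alone, beside 49.0%. MED19 gave 0 higher and 1 lower (NTRK2), beside 5.13%, and 3 higher and 3 lower by adjusted p alone, beside 32.6%. MED23 gave 0 higher and 1 lower (KIT), beside 6.35%, and 4 higher and 3 lower by adjusted p alone, beside 34.8%. Without replicate 2 of the GFP guide in DMSO the lower calls were 1 for MED12 and 0 for MED23. The medians of these differences were -0.13, -0.17 and -0.21 beside -0.04, 0 and -0.01.

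SOX10 overexpression was set against the empty vector in control and in MED23 knockout cells, which addresses how added SOX10 changes the receptors in either background. Of the receptors, 9 of 10 passed the filter on low counts, and KIT did not. In control cells with SOX10 overexpression 0 receptors were called higher or lower at 2-fold, beside 2.38% of all 18009 genes tested, and by adjusted p alone 2 were higher and 4 lower, beside 22.6%. In MED23 knockout cells 0 were called at 2-fold, beside 5.42%, and by adjusted p alone 3 were higher and 4 lower, beside 41.9%. DESeq2's Wald test called 0 in both as well. The medians were -0.13 and -0.12 over the receptors beside 0 over all genes. MED23 knockout with the vector, the reference for the second comparison, gave 1 higher (PDGFRA) and 1 lower (MERTK) at 2-fold, beside 5.51%, and 5 higher and 2 lower by adjusted p alone, beside 43.4%.

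MET, FGFR1 and TYRO3 moved with SOX10 in the direction opposite to loss of MED23. MET stood at 145, 139 and 144 CPM in control cells with the vector, 257, 254 and 249 CPM in MED23 knockout cells with the vector, and 149, 141 and 143 CPM in MED23 knockout cells with SOX10 overexpression. Loss of MED23 raised it by 0.83 ± 0.032 (adjusted p = 4.88e-19) and SOX10 then lowered it by 0.81 ± 0.0319 (adjusted p = 1.08e-18). FGFR1 stood at 23.4, 26 and 24.9 CPM, then 41.7, 46.8 and 46.4 CPM, then 25.2, 27 and 24.6 CPM in the same 3 groups (0.86 ± 0.0517 and -0.81 ± 0.0509, adjusted p of 1.73e-14 and 5.39e-14). The SOX10-overexpressing knockout libraries of both receptors overlapped the control libraries. TYRO3 stood at 62.1, 62 and 61 CPM, then 34.8, 35.9 and 37.3 CPM, then 53.3, 57.6 and 53.4 CPM (-0.78 ± 0.0417 and 0.61 ± 0.042, adjusted p of 1.29e-15 and 5.68e-13), so it stayed below the control libraries. In control cells SOX10 overexpression lowered MET by 0.55 ± 0.0337 and FGFR1 by 0.41 ± 0.0586 and raised TYRO3 by 0.27 ± 0.0383 (adjusted p of 8.77e-14, 2.55e-06 and 2.26e-06).

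**Figure D4:**
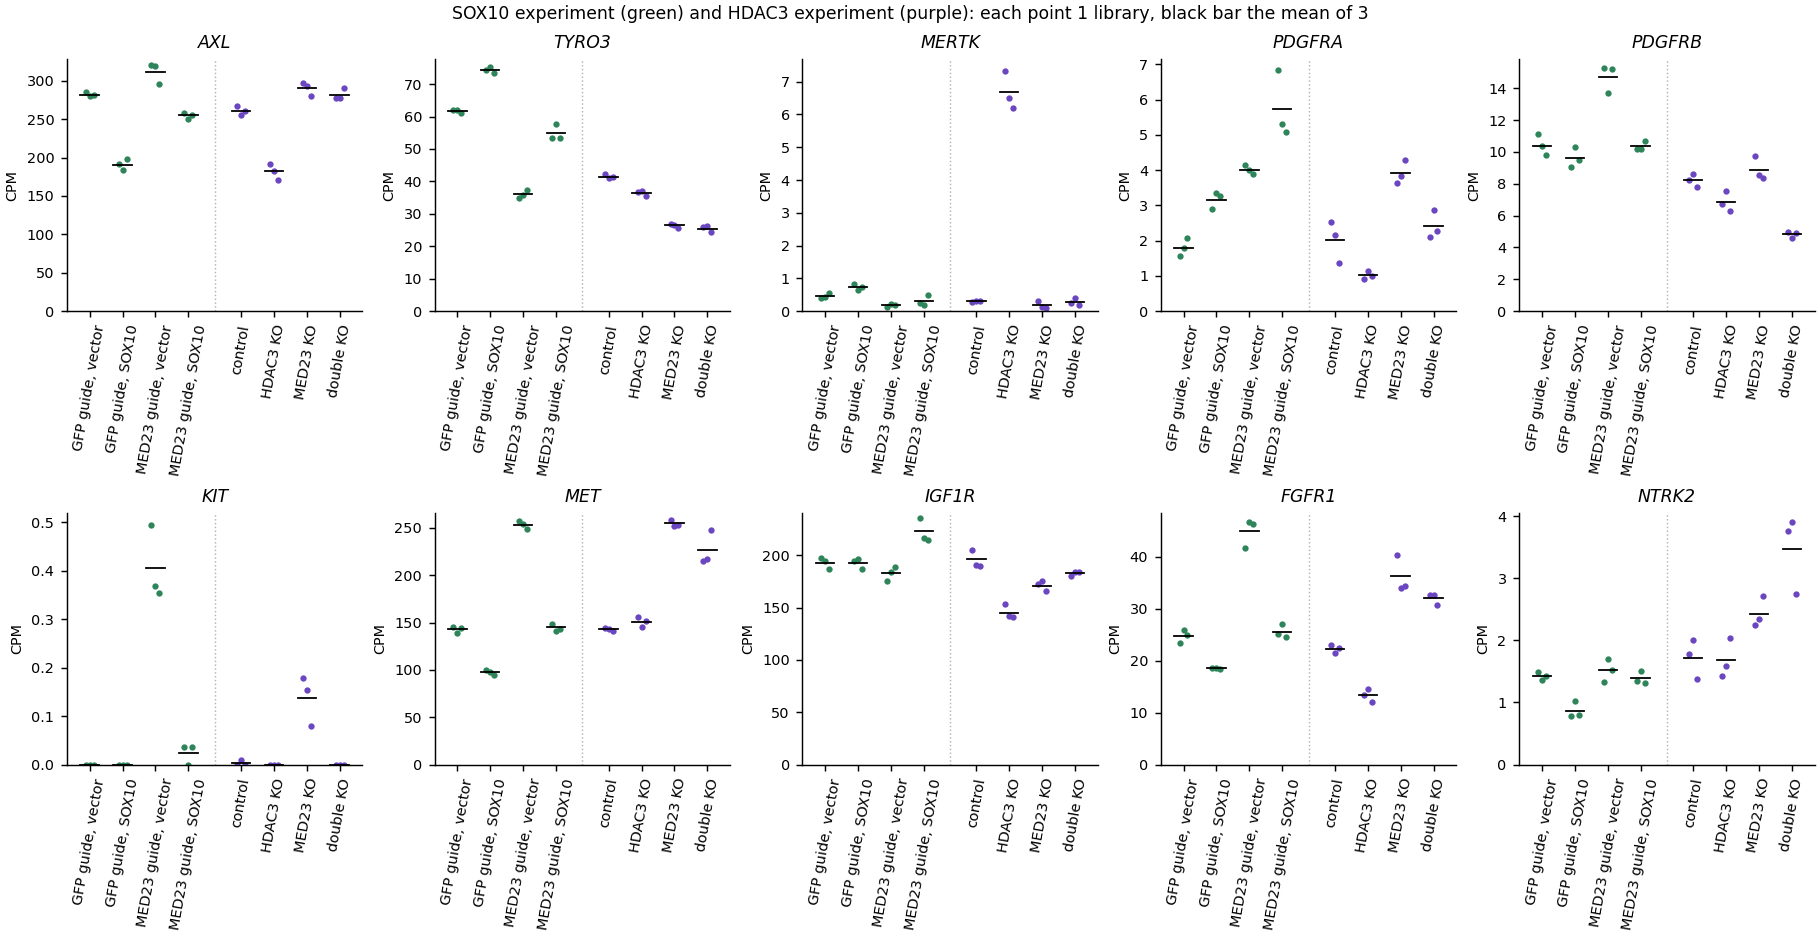
Levels of the 10 receptors in the SOX10 (green) and HDAC3 (purple) experiments, in CPM on linear axes from 0; each point is 1 library and the black bar is the mean of 3. MET in MED23 knockout cells with the vector stands at 249 to 257 CPM and with SOX10 overexpression at 141 to 149 CPM, and MERTK stands at 6.2 to 7.33 CPM in HDAC3 knockout cells alone.

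PDGFRA was an exception, with rises from both changes. It stood at 1.57, 1.78 and 2.06 CPM in control cells with the vector, 2.89, 3.34 and 3.25 CPM with SOX10 overexpression, 4.15, 3.99 and 3.89 CPM in MED23 knockout cells with the vector and 6.85, 5.3 and 5.08 CPM in those with SOX10 overexpression. None of these 4 groups overlapped. SOX10 raised it by 0.80 ± 0.157 in control cells (adjusted p = 0.000242) and by 0.52 ± 0.117 in MED23 knockout cells (adjusted p = 0.000615), and MED23 loss with the vector by 1.15 ± 0.15 (adjusted p = 2.23e-07). AXL fell with SOX10 from 280 to 285 CPM to 184 to 198 CPM in control cells (-0.56 ± 0.0339, adjusted p = 6.51e-14) and from 296 to 321 CPM to 251 to 258 CPM in MED23 knockout cells (-0.29 ± 0.0333, adjusted p = 2.29e-08). PDGFRB fell with SOX10 in MED23 knockout cells by 0.50 ± 0.0702 (adjusted p = 8.14e-07), as the fibroblast list went from 39.6 to 40.6 CPM to 28 to 30.1 CPM, whose part in the result was not tested. MED23 loss with the vector had raised AXL (0.14) and PDGFRB (0.50), so these 2 receptors also moved in opposite directions with the 2 changes. IGF1R rose by 0.29 ± 0.0366 in MED23 knockout cells (adjusted p = 1.91e-07), and NTRK2 fell by 0.73 ± 0.2 in control cells (adjusted p = 0.00717), with -0.12 ± 0.175 in MED23 knockout cells (adjusted p = 0.636). MERTK fell with MED23 loss from 0.41, 0.426 and 0.551 CPM to 0.114, 0.222 and 0.177 CPM (-1.41 ± 0.426, adjusted p = 0.00794). With SOX10 it had 0.67 (adjusted p = 0.123) in control cells and 0.82 (adjusted p = 0.164) in MED23 knockout cells. IGF1R with MED23 loss had -0.08 (adjusted p = 0.0828), and without replicate 3 of the MED23 knockout with the vector -0.10 (adjusted p = 0.0486).

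The SOX10 effect differed between MED23 knockout and control cells for 6 of the 9 receptors tested, 3 in each direction, beside 14.7% of all genes, and at 2-fold for 0, beside 1.55%; DESeq2's Wald test also gave 0 at 2-fold. The differences were -0.40 ± 0.0779 for FGFR1 (adjusted p = 0.00039), -0.38 ± 0.104 for PDGFRB (adjusted p = 0.0115) and -0.26 ± 0.0463 for MET (adjusted p = 0.000151). They were 0.34 ± 0.0569 for TYRO3 (adjusted p = 7.14e-05), 0.29 ± 0.0519 for IGF1R (adjusted p = 0.000158) and 0.27 ± 0.0475 for AXL (adjusted p = 0.000119). For NTRK2 the difference of 0.61 ± 0.266 did not pass (adjusted p = 0.134). The median difference was 0.15 over the receptors and 0 over all genes.

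KIT reads were found in MED23 knockout cells with the vector and were nearly gone with SOX10. The counts over 3 libraries were 0 in control cells with the vector, 0 with SOX10 overexpression, 33 in MED23 knockout cells with the vector and 2 in those with SOX10 overexpression. MED23 knockout with the vector was 10.8-fold higher than the control when the control was set at a floor of 3 counts over the group. This value leaves out the counting error of the 33 reads, so it is not a lower bound. The ratio of SOX10 overexpression to vector in MED23 knockout cells was 0.0581 (95% interval 0.00675 to 0.227). The receptor was not tested in the model there. When single libraries were left out KIT passed the filter in some fits and was called. The number of receptors called was then 2 higher for MED23 loss with the vector (without replicate 1, 2 or 3 of the control or replicate 3 of the knockout). It was 1 lower for SOX10 in MED23 knockout cells (without replicate 3 of the vector group or any 1 of the SOX10 group).

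Loss of HDAC3, alone and with MED23, was set against untreated control cells, with 9 of 10 receptors past the filter on low counts. MERTK, which in this line was among the lowest, rose strongly in HDAC3 knockout cells. With HDAC3 loss 1 receptor was called higher (MERTK) and 1 lower (PDGFRA) at 2-fold, beside 8.19% of all 21139 genes tested, and by adjusted p alone 1 was higher and 6 lower, beside 42.1%. The median was -0.26 over the receptors and 0 over all genes. MERTK stood at 0.275, 0.297 and 0.301 CPM in control cells and at 7.33, 6.51 and 6.2 CPM in HDAC3 knockout cells, a log2 fold change of 4.51 ± 0.241 (adjusted p = 7.73e-13). Cells with both knockouts stood at 0.246, 0.401 and 0.195 CPM and MED23 knockout cells at 0.312, 0.112 and 0.0921 CPM, so the rise was not seen when MED23 was lost as well. The HDAC3 effect in MED23 knockout cells was 0.58 ± 0.372 (adjusted p = 0.245), and the difference between the HDAC3 effects was -3.94 ± 0.462 (adjusted p = 1.25e-06). Without replicate 1 of the MED23 knockout these were 1.45 (adjusted p = 0.00675) and -3.06 (adjusted p = 0.000225), and the MED23 effect on MERTK, -0.63 (adjusted p = 0.207), was -1.50 (adjusted p = 0.00474). Alongside, the melanocytic list summed to 984 to 1010 CPM in HDAC3 knockout cells, 564 to 576 CPM in control cells and 495 to 552 CPM with both knockouts, and its part in the result was not tested. Of these sums SOX10 made up means of 470, 448 and 387 CPM, in the same order.

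The other receptors fell or did not pass in HDAC3 knockout cells. FGFR1 went from 23, 21.5 and 22.5 CPM to 13.4, 14.6 and 12.1 CPM (-0.74 ± 0.0754, adjusted p = 3.68e-08) and AXL from 267, 255 and 261 CPM to 192, 182 and 171 CPM (-0.52 ± 0.0447, adjusted p = 2.15e-09). PDGFRA went from 2.53, 2.15 and 1.37 CPM to 0.894, 1.14 and 0.987 CPM (-1.01 ± 0.201, adjusted p = 0.000289). These groups did not overlap. PDGFRA lies on the 2-fold line, and 0 receptors were called lower without replicate 1 or 2 of the control or replicate 1 or 3 of the HDAC3 knockout. IGF1R fell by 0.43 ± 0.0452 (adjusted p = 6.77e-08), TYRO3 by 0.19 ± 0.0518 (adjusted p = 0.00526) and PDGFRB by 0.26 ± 0.0901 (adjusted p = 0.0223). The PDGFRB call was lost without replicate 2 of the control (adjusted p = 0.0854), or replicate 1 (0.0612) or replicate 3 (0.116) of the HDAC3 knockout. MET (0.08, adjusted p = 0.205) and NTRK2 (-0.02, adjusted p = 0.936) did not pass.

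With MED23 loss alone 0 receptors were called at 2-fold, beside 4.76% of all genes, and by adjusted p alone 5 were higher and 2 lower, beside 24.3%; DESeq2's Wald test also called 0. The number called higher was 2 (PDGFRA and KIT) without replicate 1 of the control, 1 (KIT) without its replicate 2 or 3 or replicate 3 of the MED23 knockout, and 1 (PDGFRA) without replicate 1 of the MED23 knockout, where MERTK was also called lower. PDGFRA (0.95 ± 0.172) lies near the 2-fold line, and KIT is not tested with all libraries. With both knockouts against control 1 was higher (NTRK2) and 0 lower, beside 5.00%, and by adjusted p alone 3 were higher and 2 lower, beside 36.6%. NTRK2 stood at 3.76, 3.9 and 2.74 CPM with both knockouts and 1.78, 2 and 1.37 CPM in control cells (1.01 ± 0.168, adjusted p = 5.23e-05), without overlap. Its 2-fold call was lost without replicate 3 of the control or replicate 1 or 2 of the double knockout. PDGFRB fell with both knockouts by 0.77 ± 0.0929 (adjusted p = 8.34e-07), to 4.6 to 4.99 CPM from 7.77 to 8.63 CPM. Over the same groups the fibroblast list summed to 39.9 to 44.5 CPM and 18.6 to 21.4 CPM, the opposite direction. The medians over the receptors were 0.16 with MED23 loss and 0.11 with both, beside 0 over all genes.

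HDAC3 loss within MED23 knockout cells gave 0 receptors called at 2-fold, beside 6.03% of all genes, and by adjusted p alone 1 higher and 4 lower, beside 38.0%; DESeq2's Wald test also called 0. PDGFRB fell by 0.88 ± 0.0934 (adjusted p = 1.08e-07) and PDGFRA by 0.69 ± 0.176 (adjusted p = 0.00336). MET (-0.17 ± 0.0492, adjusted p = 0.00995), FGFR1 (-0.19 ± 0.0714, adjusted p = 0.0441) and NTRK2 (0.51 ± 0.166, adjusted p = 0.0176) passed, but the MET call was lost without replicate 1 or 2 of the double knockout (adjusted p of 0.061 and 0.0706). FGFR1 lost its call without replicate 1 of the MED23 knockout (adjusted p = 0.323) or any 1 of the double knockout (0.0623 to 0.138). NTRK2 lost it without replicate 1 or 2 of either group (0.0581 to 0.0985). IGF1R had 0.09 ± 0.0451 (adjusted p = 0.112), and 0.09 with an adjusted p of 0.0461 when the replicate number was a block. Deviations of libraries with the same replicate number correlated at 0.152 to 0.332 in this comparison. KIT, with 37 reads in MED23 knockout cells, had 0 in the double knockout. That is 8.96-fold lower with the double knockout set at the floor of 3 counts, leaving out the counting error of the 37 reads. At 2-fold 1 receptor was higher without replicate 1 of the MED23 knockout (MERTK) and 1 lower (KIT) without its replicate 3 or without any 1 of the double knockout. The difference between the HDAC3 effects gave 0 higher and 1 lower (MERTK) at 2-fold, beside 3.55%, and 3 higher and 3 lower by adjusted p alone, beside 20.5%. AXL (0.48 ± 0.0629, adjusted p = 5.48e-06), IGF1R (0.52 ± 0.0639, adjusted p = 2.34e-06) and FGFR1 (0.56 ± 0.104, adjusted p = 0.000396) were less lowered by HDAC3 loss once MED23 was lost. The HDAC3 effect was more negative once MED23 was lost for PDGFRB (-0.62 ± 0.13, adjusted p = 0.00125) and MET (-0.25 ± 0.0698, adjusted p = 0.0134; without replicate 2 of the double knockout -0.22, adjusted p = 0.0516). The medians were -0.05 and 0.31 over the receptors beside -0.01 and 0.

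MED23 loss was measured in the 3 experiments, each with its own control libraries, in DMSO, with the vector and in untreated cells. MET rose by 1.02 ± 0.023, 0.83 ± 0.032 and 0.84 ± 0.0495 on the log2 scale, and FGFR1 by 0.72 ± 0.0389, 0.86 ± 0.0517 and 0.70 ± 0.0713. TYRO3 fell by 0.74 ± 0.036, 0.78 ± 0.0417 and 0.65 ± 0.052. The libraries of these 3 receptors did not overlap in any of the experiments. PDGFRA rose by 0.64 ± 0.0958, 1.15 ± 0.15 and 0.95 ± 0.172. AXL rose by 0.38 ± 0.0236, 0.14 ± 0.0333 and 0.16 ± 0.0443, where the last call was lost without replicate 2 of the control (adjusted p = 0.063) or replicate 1 (0.0518) or 2 (0.0513) of the MED23 knockout. MERTK had -1.39, -1.41 and -0.63, the last without passing. IGF1R had -0.29, -0.08 and -0.19, PDGFRB 0.27, 0.50 and 0.11, and NTRK2 0.45, 0.09 and 0.50, and in each of these 1 experiment did not pass the test. The NTRK2 call in the HDAC3 experiment (adjusted p = 0.0339) was lost without replicate 1 (0.0625) or 3 (0.191) of the control or replicate 2 (0.066) or 3 (0.145) of the knockout. KIT had 349 reads beside 1, 33 beside 0 and 37 beside 1, the last a ratio of 44.1 (95% interval 7.44 to 1790).

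**Figure D5:**
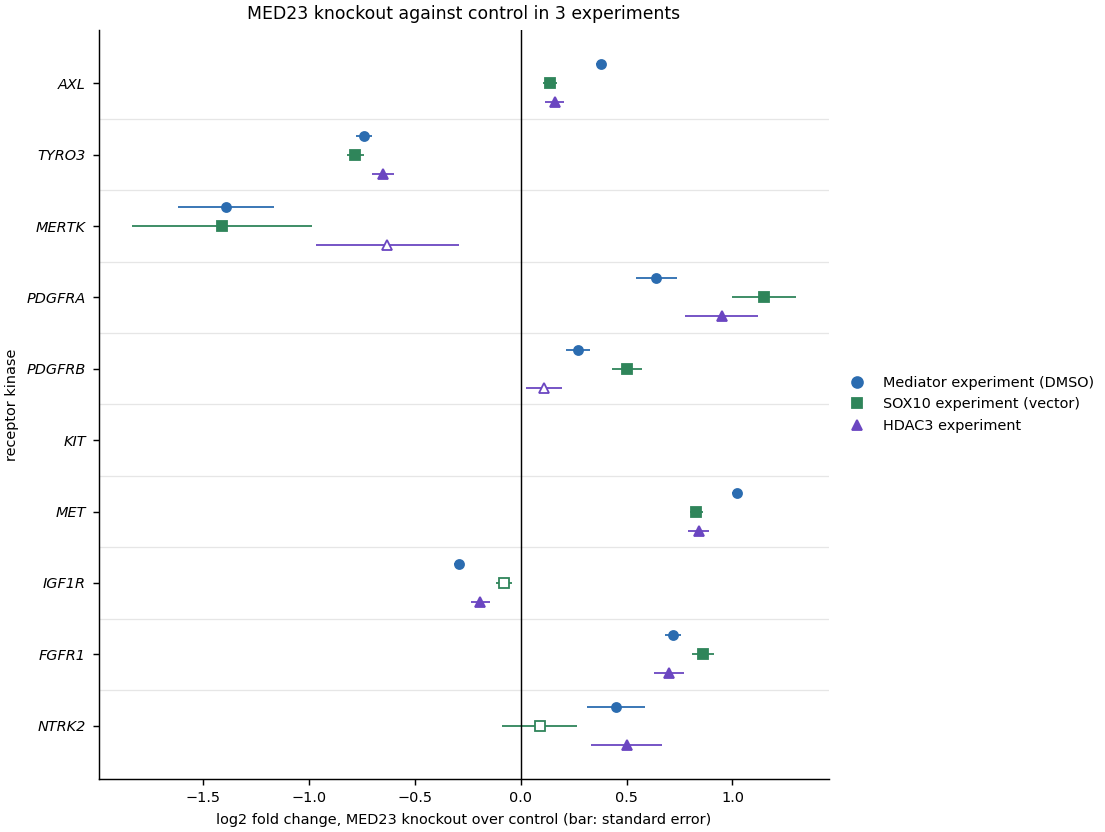
Log2 fold change of each receptor in MED23 knockout cells over the control of the same experiment, in the Mediator experiment in DMSO (circles), the SOX10 experiment with the vector (squares) and the HDAC3 experiment (triangles); bars are standard errors, open symbols have an adjusted p of 0.05 or more, and KIT is left out because its controls had 1 read or fewer. MET, FGFR1 and PDGFRA lie right of 0 and TYRO3 and MERTK left of 0 in the 3 experiments.

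Ligands of these receptors moved toward higher levels with loss of MED12. Of 15 ligand genes tested in the Mediator experiment 12 rose and 1 fell in MED12 knockout cells in DMSO, beside 54.9% of all genes changed in either direction. At 2-fold 7 were higher and 1 lower, beside 15.6%, and the median log2 fold change was 0.93 beside 0 over all genes. FGF5 (4.17 ± 0.189), a fibroblast growth factor, PDGFC (2.27 ± 0.0537) and PDGFA (1.69 ± 0.0942), ligands of the PDGF receptors, rose most among those at 1 CPM or more. With MED19 loss 8 rose and 5 fell (median 0.40), beside 40.6% of all genes, with FGF5 at 1.76 ± 0.191 and PDGFC at 1.52 ± 0.0533. With MED23 loss 7 rose and 2 fell (median 0.36 beside 0.01), beside 36.9% of all genes, with PDGFC at 1.78 ± 0.0533, BDNF, the ligand of NTRK2, at 1.45 ± 0.0736 and PDGFA at 1.17 ± 0.0939. PDGFC and BDNF also rose with MED23 loss in the SOX10 experiment (1.93 ± 0.0667 and 1.45 ± 0.107) and in the HDAC3 experiment (1.84 ± 0.0807 and 1.21 ± 0.107). SOX10 overexpression in MED23 knockout cells lowered both, by 0.95 ± 0.0582 and 1.87 ± 0.112. Vemurafenib in control cells raised 8 of 15 ligands and lowered 4 (median 0.33 beside 0.11), beside 66.2% of all genes changed, among them FGF1 (2.77 ± 0.0574), FGF7 (2.47 ± 0.284) and PDGFB (-1.57 ± 0.194). HDAC3 loss raised 7 of 14 and lowered 4 (median 0.24 beside 0), beside 42.1% of all genes, with FGF7 at 2.36 ± 0.378, KITLG, the ligand of KIT, at 1.49 ± 0.093 and PDGFB at -2.73 ± 0.273.

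Among 22 adaptor and relay genes 10 rose and 10 fell with vemurafenib in control cells (median -0.04 beside 0.11), beside 66.2% of all genes changed. The adaptor GAB1 rose by 1.94 ± 0.0577, the PI3K subunit PIK3R1 rose by 1.51 ± 0.0365 and IRS1, the adaptor of IGF1R, fell by 1.61 ± 0.0527. IRS2 fell with each knockout in DMSO, by 1.90 ± 0.0249, 1.01 ± 0.025 and 0.74 ± 0.0251 (MED12, MED19, MED23), and rose with HDAC3 loss by 1.68 ± 0.0493. Over the whole list 10 rose and 8 fell with MED12 loss (beside 54.9% of all genes), 9 and 5 with MED19 loss (40.6%), 12 and 5 with MED23 loss (36.9%) and 4 and 9 with HDAC3 loss (42.1%). Of 15 negative regulators 4 rose and 9 fell with the drug (median -0.42), beside the same 66.2%, led by the adaptor SH2B3 (-2.87 ± 0.033), the kinase inhibitor ERRFI1 (-2.41 ± 0.0295) and SOCS3 (-1.64 ± 0.0785). Of 10 coreceptors and sheddases 9 rose and 1 fell with the drug (median 0.53), again beside 66.2%, with SORT1 at 1.63 ± 0.0314 and NRP2 at 1.40 ± 0.035. The neurotrophin coreceptor NGFR fell by 2.95 ± 0.0424 with MED12 loss in DMSO, where 5 of these 10 rose and 5 fell, beside 54.9%. Of 22 further receptor kinases tested 11 rose and 5 fell with the drug (median 0.31), a share near the 66.2% of all genes, and 7 rose and 11 fell with MED12 loss (median -0.26), beside 54.9%. At 2-fold 36.4% of them were called with the drug, and 59.1%, 27.3% and 40.9% with MED12, MED19 and MED23 loss in DMSO. For the 10 receptors these shares were 40%, 40%, 20% and 30%, and for all genes 29.7%, 15.6%, 6.30% and 6.79%. The receptor kinase ROS1 rose with the drug and with MED12 loss, by 3.22 ± 0.223 and 5.35 ± 0.184. The MET relative MST1R rose with each knockout in DMSO, by 3.03 ± 0.166, 1.61 ± 0.165 and 1.78 ± 0.164.

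Over the 14 group means of log2 CPM in the Mediator experiment, MET ran closest to FGFR1 within the set (Pearson r = 0.92) and opposite to NTRK2 (r = -0.88). TYRO3 ran opposite to KIT (r = -0.83), and MET beside PDGFRA (r = 0.86). Among 12188 genes with a mean log2 CPM of at least 2, the profile most like NTRK2 was that of LRP1B (r = 0.995), for MET it was DNER (0.989) and for FGFR1 RAB22A (0.984). For PDGFRB it was AP2A1 (0.972), for AXL ADAM9 (0.96), for MERTK MAGI2-AS3 (0.955) and for KIT COL5A1 (0.949). For IGF1R it was SLC25A39 (0.949), for TYRO3 KANK1 (0.948) and for PDGFRA EML1 (0.948). The points share libraries, scaling and treatments, so these correlations describe the 14 groups and carry no test. KIT had 1 read in control cells in DMSO, and 7 and 19 with MED19 guides 1 and 2 in DMSO. Its correlations with TYRO3 and COL5A1 thus rest in part on groups with few reads.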

How the data were processed

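The authors deposited 1 table of raw read counts by gene for each experiment. Per the submitters' processing notes, the tools were bcl2fastq, HISAT2 and HTSeq and the build was hg38. For their versions, the annotation, the strand setting and multiply mapped reads, the sources used here say nothing. Per the labels' protocols, libraries were made with the KAPA Stranded mRNA-Seq kit. Every column was matched to a sample, 15 under a name unlike the title. In the HDAC3 table the 3 controls appear under GFP and were matched by elimination.

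The members, gene lists and promoter motifs were chosen with earlier results of these data known. Each table was fitted separately with edgeR 4.0.16 (limma 3.58.1, R 4.3.3): filterByExpr (minimum count 10, minimum total 15), TMM scaling and the quasi-likelihood test on group means (both guides weighted equally), with Benjamini-Hochberg adjustment over all genes tested. Calls required adjusted p below 0.05 together with at least 2-fold change; for single genes, rose and fell refer to the p criterion alone. SEs were derived as log2 fold change over the root of F. All 10 members are named; up to 3 genes per list with the largest passing change at 1 CPM or more were eligible to be named, and GAS6 and the targets were set by name. KIT ratios are of counts pooled over libraries and scaled by library size, with exact 95% intervals that cover counting error only. Promoter sequences are RefSeq's (GRCh38.p14). No label says that replicates were separate cultures, so p-values measure the spread between libraries; counts of replicates differed by 1.51 to 26.18 times the Poisson variance. Whether replicate numbers pair libraries was checked from the correlation of their deviations: every pair exceeded 0.1 in HDAC3 knockout within MED23 knockout cells (0.152 to 0.332) and in no other comparison. The mean was 0.218 there, 0.312 for HDAC3 knockout in untreated cells (0.092 to 0.568) and 0.231 for MED23 knockout in untreated cells (-0.081 to 0.49). Pairing elsewhere in the HDAC3 experiment is therefore not excluded, and the main tests used no block. Alternatives were each guide alone, both guides as 1 group, no filter on low counts, DESeq2 1.42.0 size factors and Wald test, a replicate block, only the groups compared, and leaving out each library.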

Additional observations from a re-analysis of the deposited data

Results flagged for a closer look

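The receptors below responded differently in 2 backgrounds by the test of the difference itself, with an adjusted p under 0.05 (edgeR) and a 2-fold difference. The response of NTRK2 to vemurafenib was smaller in MED12 knockout cells than in control cells by a log2 difference of -2.07 (adjusted p = 2.19e-14) and in MED19 knockout cells by -1.09 (adjusted p = 1.31e-06), which was -0.77 (adjusted p = 0.00466), under the 2-fold line, with guide 2 alone. The response of IGF1R differed by 1.19 in MED12 knockout cells (adjusted p = 2.77e-32), where it rose with the drug and in control cells fell. For KIT the fitted differences were -3.13 for MED12 (adjusted p = 0.0136) and -3.18 for MED23 (adjusted p = 0.0168), which rest on 1 read in control cells in DMSO. MERTK responded to HDAC3 loss less in MED23 knockout cells, by -3.94 (adjusted p = 1.25e-06). No group has more than 3 libraries, so single libraries were not screened as outliers.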

How the results depend on the processing

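Over all alternatives, of 3487 single-receptor values 3415 kept their side of the threshold, 41 lost the call and 31 gained it. These totals hold KIT only where it passed the filter on low counts in both fits, so not in the SOX10 and HDAC3 experiments. KIT calls gained there, or lost in fits of only the groups compared, are thus not among the 31 and 41. Of values past the threshold in either setting 0 changed sign, while some that passed in neither did; 52 of 720 counts of receptors called at 2-fold moved by over 1.5 times. DESeq2 size factors, DESeq2's Wald test and both guides as 1 group moved no count by over 1.5 times. Smaller moves fall under that rule. PDGFRA with MED12 loss in DMSO lost its 2-fold call with DESeq2 size factors (0.98) and DESeq2's Wald test (0.98). It also lost it without a filter on low counts (0.99) and with only the groups compared (0.99). With guide 1 alone, MED23 loss in DMSO gave 1 higher and its difference in drug response 1 higher. With guide 2 alone, MED19 loss gave 1 lower in DMSO and 1 higher under the drug, its difference in response 0 lower (NTRK2 at -0.77), the drug in MED23 knockout cells 2 lower and the MED23 difference 2 lower. With only the groups compared, the drug in control cells gave 1 lower, MED19 loss in DMSO 1 higher and SOX10 in MED23 knockout cells 1 lower. Without a filter on low counts, MED23 loss gave 2 higher with the vector and 1 higher in untreated cells, SOX10 in MED23 knockout cells 1 lower, both knockouts 0 higher and HDAC3 loss in MED23 knockout cells 1 lower; the median of all genes with the drug in control cells was then 0 in place of 0.11. With a replicate block, HDAC3 loss gave 0 lower, and no other count moved by over 1.5 times. In HDAC3 knockout within MED23 knockout cells, where every correlation of replicate numbers exceeded 0.1, IGF1R (adjusted p = 0.0461) was the receptor whose call changed.

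Leaving out single libraries, higher calls ranged from 0 to 1 with both knockouts and with HDAC3 loss in MED23 knockout cells, from 1 to 2 with MED19 loss in DMSO and under the drug, from 0 to 2 with MED23 loss in untreated cells and from 1 to 2 with the vector. They ranged from 3 to 4 with MED12 loss in DMSO and with the drug in MED19 and MED23 knockout cells. Lower calls ranged from 0 to 1 for HDAC3 loss, alone and in MED23 knockout cells, MED19 loss in DMSO, the MED23 difference, MED23 loss in untreated cells, SOX10 in MED23 knockout cells and the drug in control cells, and from 1 to 2 for the MED12 difference and the drug in MED23 knockout cells. The causes were not tested. Interactions in the SOX10 and HDAC3 experiments use all groups, so a fit of only the groups compared gave no separate value. Few reads limit KIT, with 0 or 1 over each group of control cells without the drug, and MERTK in the SOX10 experiment, with 14 to 62 reads per group.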
